A study of Homo sapiens with 6 samples.

Results

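The zinc finger genes of human chromosome 19 were followed across 6 arrays of BT474 cells, a breast cancer cell line that expresses the estrogen receptor and HER2. Members were chosen by name and place: every probe whose gene name is ZNF and a number and whose position in the scanner files is on chromosome 19 (hg19). This set was taken up with earlier results of these data known. This gave 373 probes of 248 genes out of 58201 probes under 43317 gene names. All 3 groups were stably transfected lines. Control BT474 cells, labeled MOCK, carried an empty pcDNA3.1 plasmid. BT474-Var1 cells carried the long variant 1 of the lncRNA NR2F1-AS1 in pcDNA3.1/Hygro(+), and BT474-Var4 cells carried the short variant 4 in pcDNA3.1-P2A-eGFP. Each group had 2 arrays. Both empty plasmids served as controls in the study, and which of them the Control arrays represent is not stated, so the insert and the plasmid cannot be told apart. Variant and Control cells both underwent antibiotic selection. The paper describes the variant cells as falling to a few cells, from which colonies later grew. Nothing in the labels says that the 2 arrays of a group came from separate transfections. The p-values therefore measure the spread between these arrays, which may be technical.

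The genes were described along the chromosome in 13 intervals, numbered from the short arm. Intervals 8 (44.1 to 45.6 Mb) and 10 (51.1 to 52.7 Mb) were selected on earlier results of these same arrays, and interval 4 (15 to 25 Mb) was singled out after its values were seen. Medians and counts of these 3 intervals, and every value of single genes in intervals 8 and 10, are therefore descriptions and support nothing further. At the edges of interval 8, BT474-Var1 minus Control was -0.25 for ZNF575, the last gene before it, -0.15 for ZNF576, the first inside, 0.48 for ZNF296, the last inside, and 0.88 for ZNF541, the first after it. At the edges of interval 10, the same difference was -0.03 for ZNF473 before it, 0.64 for ZNF175 and 1.01 for ZNF836 inside, and 0.15 for ZNF766 after it.

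Zinc finger proteins of the Krüppel type bind DNA through arrays of small zinc-binding domains joined by a conserved linker. Many of those on chromosome 19 also have a KRAB domain, which recruits the scaffold TRIM28, and through it the histone methyltransferase SETDB1 and the HP1 proteins, to silence the bound DNA, often copies of transposable elements. The genes arose by repeated local duplication and lie in clusters of close relatives, so a short probe can match more than 1 of them.

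The probes themselves show this relatedness. Each probe is 60 bases long. The linker between fingers, searched as a degenerate pattern on the probe's own strand, was in 13 of the 373 member probes and in 28 of all 58201 probes on the array. A second stretch, from within the finger and searched the same way, was in 21 member probes, and either was in 34. A run of 20 or more bases shared with a probe of another member gene was found in 24 probes, and 18 of them lay in interval 4. The longest, 34 bases, joined ZNF253 and ZNF85. The next 4 probes, all of interval 4, are printed 5′ to 3′ with the linker in capitals. They are assigned to different genes and share the linker pattern and some bases on both sides of it.
ZNF253: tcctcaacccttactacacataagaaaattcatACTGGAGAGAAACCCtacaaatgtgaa
ZNF85: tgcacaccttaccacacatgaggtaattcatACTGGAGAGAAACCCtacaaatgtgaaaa
ZNF493: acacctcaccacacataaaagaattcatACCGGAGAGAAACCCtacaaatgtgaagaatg
ZNF729: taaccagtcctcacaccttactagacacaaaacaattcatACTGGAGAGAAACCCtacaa

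These probes lie at chr19:20002774-20002833 (ZNF253), chr19:21132382-21132441 (ZNF85), chr19:21606725-21606774 (ZNF493, a span shorter than the probe in the scanner files) and chr19:22499726-22499785 (ZNF729), all on the plus strand of hg19. Probes of ZNF284 and ZNF615 are added because these 2 were among the probes called between groups and hold one of the patterns.
ZNF284: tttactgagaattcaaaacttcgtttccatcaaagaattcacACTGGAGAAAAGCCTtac
ZNF615: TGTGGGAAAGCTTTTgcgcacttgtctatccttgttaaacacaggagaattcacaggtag

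In ZNF284 the capitals mark the linker, and in ZNF615 the second stretch. The probes lie at chr19:44591105-44591164 (ZNF284, plus strand) and chr19:52496133-52496192 (ZNF615, minus strand). How far such probes took signal from related transcripts was not tested.

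A level below is the log2 of the processed signal of a probe minus the 75th percentile of its array, so that 0 is that percentile, and a difference of 1 is 2-fold. Levels of different probes cannot be compared with each other. Tested were the 331 member probes, of 229 genes, that exceeded background clearly (the scanner software's mark) in both arrays of 1 or more groups. Of all 373 member probes, 312 were well above background on all 6 arrays and 32 on none. The 19 genes with no tested probe included ZNF536, a neuronal factor, and ZNF404, ZNF285 and ZNF229 of interval 8. A gene with several tested probes was represented by the one with the highest mean level. All 6 arrays were on 1 slide, where the barcode gives each a first and a second position number. Which number is the row and which the column is not stated. The first was 2 for both BT474-Var1 arrays and 1 for the other 4, so BT474-Var1 and this position cannot be told apart. The second was 1 and 2 for the Control arrays and 3 or 4 for all 4 variant arrays. A difference of either variant from Control therefore cannot be told apart from the second position. Of the 4 probes of the transfected lncRNA, 0 were well above background on both Control arrays, 3 were on both BT474-Var1 arrays and 2 on both BT474-Var4 arrays. All 11 luminal epithelial markers were well above background on all 6 arrays. Against Control, 1 of them was called lower in BT474-Var4 cells, at -1.22, where 9 were below 0 and 2 above. In BT474-Var1 cells none was called, with 6 above 0 and 5 below. The summed level of 4 fibroblast markers was 1.63 and 1.65 in Control, 1.91 and 1.87 in BT474-Var1, and 2.51 and 2.46 in BT474-Var4 cells. Of the 3 tested, 2 were called higher and 0 lower in BT474-Var4 than in Control cells, with differences from -0.32 to 3.83. In BT474-Var1 against Control cells 0 were called. DCN was well above background only in BT474-Var4 cells and COL1A2 on no array. The summed level of 4 basal markers ran from -3.37 to -3.07 in Control, -2.72 to -2.15 in BT474-Var1 and -2.91 to -2.52 in BT474-Var4 cells. Of them KRT5 and ACTA2 were well above background on no array, and 1 of the 2 KRT14 probes was called higher in both variants. The sum of 3 endothelial markers ran from 1.37 to 1.48, 0.82 to 0.92 and 1.28 to 1.36. Of 4 leukocyte markers, 2 were well above background on all 6 arrays. The sum of the 4 ran from 0.31 to 0.38 in Control, 0.39 to 0.42 in BT474-Var1 and 0.18 to 0.29 in BT474-Var4 cells. The part of these markers in the results was not tested.

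As a whole, the zinc finger genes of chromosome 19 lay slightly higher in BT474-Var1 and slightly lower in BT474-Var4 cells than in Control cells. The median over the 229 genes was 0.06 for BT474-Var1 minus Control, with 141 genes above 0, against -0.05 over all 24585 gene names tested. For BT474-Var4 minus Control it was -0.17, with 177 genes below 0, against -0.08 over all. For BT474-Var4 minus BT474-Var1 it was -0.19, with 183 genes below 0, against -0.03 over all. The ZNF genes of other chromosomes, 228 of them tested, had medians of -0.04, -0.09 and -0.02 in the same order, and the 1227 other genes of chromosome 19 had 0.01, -0.11 and -0.12. The array medians of the 229 genes, taken against the Control mean, were 0.077 and 0.059 for BT474-Var1 and -0.14 and -0.18 for BT474-Var4 cells. Both comparisons with Control share the 2 Control arrays. The 229 genes include the 20 of interval 8 and the 11 of interval 10, which were selected on these arrays.

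**Figure D1:**
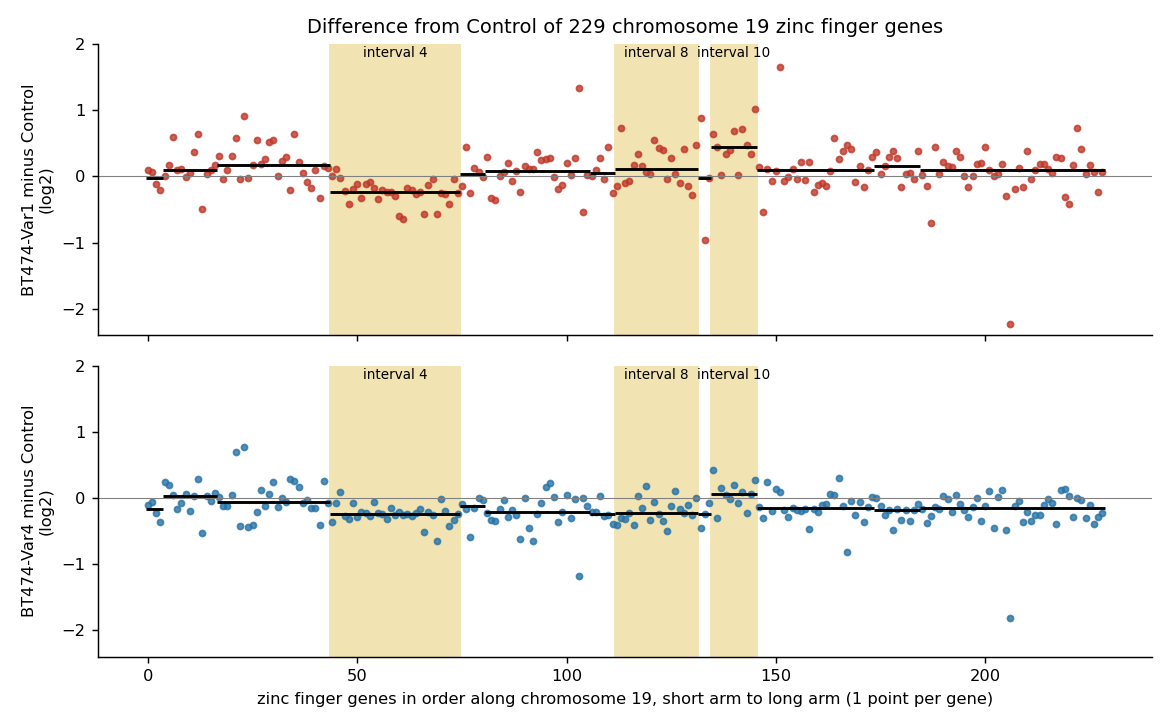
Log2 difference from the Control mean (y axis) of each of the 229 tested genes in their order along chromosome 19 (x axis), for BT474-Var1 (top) and BT474-Var4 cells (bottom). Black lines are the medians of the 13 intervals and the shaded intervals are 4, 8 and 10; the interval 4 median is -0.23 in the top and -0.25 in the bottom panel, and that of interval 10 is 0.44 and 0.07.

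Few members changed by 2-fold. At 2-fold and an adjusted p under 0.05 (limma, adjusted over all 31807 tested probes), 4 member probes were higher and 2 lower in BT474-Var1 than in Control cells, 1.21% and 0.604% of those tested, where 2.77% and 1.16% of all tested probes were called. In BT474-Var4 against Control cells 0 were higher and 4 lower, with 1.59% and 1.57% over all probes. Between BT474-Var4 and BT474-Var1 cells, 0 were higher and 7 lower in BT474-Var4, with 2.27% and 4.59% over all. These shares of members were all below those of the array. With normexp background correction and an offset of 50, 0 member probes were called in each of the 3 comparisons. The share of all tested probes called under normexp was not set beside this, so it cannot be read as particular to the members.

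Without the 2-fold limit, a rule chosen after the data were seen, more member probes passed in one direction than in the other in each comparison. In BT474-Var1 against Control cells, 72 probes passed the adjusted p higher and 41 lower, 21.8% and 12.4%, beside 14.1% and 20.4% over all tested probes. In BT474-Var4 against Control cells, 9 were higher and 71 lower, 2.72% and 21.5%, beside 9.87% and 14.3%. Between BT474-Var4 and BT474-Var1 cells, 13 were higher and 124 lower in BT474-Var4, 3.93% and 37.5%, beside 20.5% and 20.8%. These counts include intervals 8 and 10, which were selected on these same arrays. In BT474-Var1 against Control cells these intervals gave 5 and 13 of the probes higher and 1 and 0 of those lower. Between the variants they gave 13 and 12 of the probes lower and 0 and 0 of those higher. The number lower in BT474-Var4 than in Control cells and the number higher in BT474-Var1 cells fell when either Control array was left out. The shares of all tested probes passing without that array were not set beside this fall. The fall therefore cannot be read as particular to the members.

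ZNF540, in interval 6 at chr19:38104700-38104759, was the only member probe called against Control in opposite directions in both variants. Its levels were -3.85 and -3.63 in Control, -2.24 and -2.58 in BT474-Var1, and -4.98 and -4.86 in BT474-Var4 cells, and no arrays of different groups overlapped. BT474-Var4 arrays were not well above background. It was higher by 1.33 (SE 0.15, limma adjusted p = 0.00666) in BT474-Var1 than in Control cells, a 2.51-fold difference. BT474-Var4 cells were at least 1.12-fold lower than Control cells (adjusted p = 0.0123) and at least 2.81-fold lower than BT474-Var1 cells (adjusted p = 0.00164). The difference between BT474-Var4 and Control cells no longer passed the adjusted p when any 1 of the Control or BT474-Var4 arrays was left out, while its fitted value stayed between -1.29 and -1.06, and between the variants the call held without each array. In such a bound, the dimmer group takes on each array the higher of its own signal and the lowest signal among probes well above background.

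ZNF541, in interval 9 at chr19:48023991-48024050, stood at -2.83 and -2.74 in Control, -1.84 and -1.98 in BT474-Var1, and -3.30 and -3.17 in BT474-Var4 cells. All 6 arrays were well above background and the groups did not overlap. It was lower by 1.32 (SE 0.08, limma adjusted p = 0.00172) in BT474-Var4 cells than in those with variant 1, which held without each array. Against Control it was 0.88 higher in BT474-Var1 (adjusted p = 0.00519) and 0.45 lower in BT474-Var4 cells (a difference of -0.45, adjusted p = 0.0267), both under 2-fold. In the same interval ZNF114, named after its values were seen, went the other way: -0.58 and -0.57 in Control, -1.53 and -1.55 in BT474-Var1, and -0.87 and -0.76 in BT474-Var4 cells, a difference of -0.96 (SE 0.06, adjusted p = 0.00319) for BT474-Var1 minus Control. The third gene of this interval, ZNF473, a factor in histone mRNA processing, differed by -0.03 and -0.08 from Control.

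Several other called probes were dim in the group where they were lower. ZNF154, a gene often methylated in tumors, at chr19:58212361-58212420 in interval 13, had Control levels of -2.49 and -4.00, and was not well above background in BT474-Var1 (-5.85 and -5.09) or BT474-Var4 cells (-5.08 and -5.05). BT474-Var1 cells were at least 1.72-fold lower (limma adjusted p = 0.0417), and the call did not hold without Control A or without any 1 of the 4 variant arrays. ZNF90, in interval 4, showed how much the probe mattered. Its probe at chr19:20231608-20231667 was at -3.52 and -3.92 in Control cells and was not well above background in BT474-Var1 (-5.84 and -5.62) or BT474-Var4 cells (-5.32 and -5.61), at least 1.23-fold and 1.13-fold lower (adjusted p = 0.00506 and 0.00868). A second probe at chr19:20228630-20228689 gave 0.23 and -0.25 (adjusted p = 0.556 and 0.542), and the third, at chr19:20236287-20236346 gave -0.11 and -0.28 (adjusted p = 0.148 and 0.0242). ZNF493 at chr19:21591532-21591591, with levels of -3.52 and -2.98 in Control and -4.28 and -4.85 in BT474-Var4 cells, was at least 1.57-fold lower in BT474-Var4 cells (adjusted p = 0.0485). Its call was lost without any 1 of the 6 arrays, and its other 3 tested probes gave -0.24, -0.15 and -0.35.

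In interval 11, ZNF880 at chr19:52888833-52888892 was at -3.69 and -3.97 in Control, -4.06 and -3.52 in BT474-Var1, and -5.09 and -4.85 in BT474-Var4 cells. The BT474-Var4 value was at least 1.05-fold lower than Control (adjusted p = 0.0286 by limma) and its call was lost without any 1 Control or BT474-Var4 array. Its brighter probe at chr19:52888043-52888102 gave -0.07 and -0.19 against Control, and the third probe 0.11 and -0.30. Between the variants the dim probe was at least 1.08-fold lower in BT474-Var4 cells (adjusted p = 0.0162 by limma), which was lost without either BT474-Var4 array or BT474-Var1 B. ZNF665 and ZNF135 were called between the variants alone. ZNF665 was at -2.83 and -2.47 in BT474-Var1 and -3.46 and -4.40 in BT474-Var4 cells, a difference of -1.28 (SE 0.35, adjusted p = 0.0441), with 1 of the 2 BT474-Var4 arrays well above background, lost without any 1 array but BT474-Var4 A. ZNF135 was at -2.70 and -2.68 in BT474-Var1 cells and not well above background in BT474-Var4 cells (-3.86 and -4.93), at least 2.07-fold lower (adjusted p = 0.0229) and lost without any 1 Control or BT474-Var1 array. Its brighter probe at chr19:58580414-58580473 gave -0.68 (adjusted p = 0.00473 by limma).

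**Figure D2:**
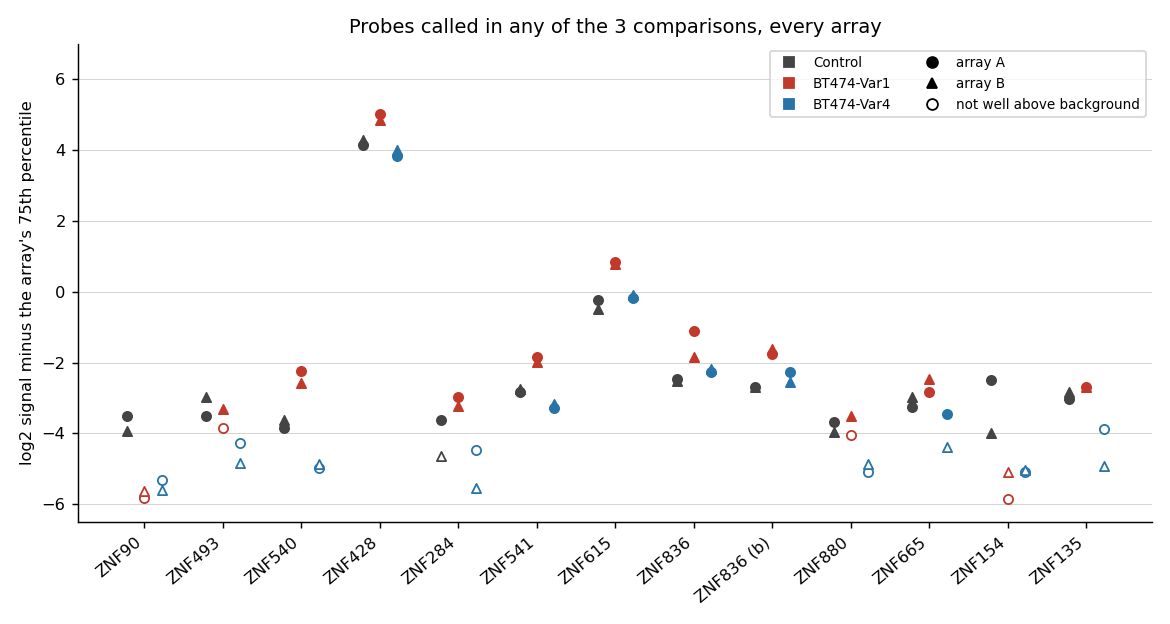
Levels (y axis, log2 signal minus the 75th percentile of the array) of the 13 member probes called in any of the 3 comparisons, on each of the 6 arrays, ordered along the chromosome; ZNF836 (b) is the second ZNF836 probe, and open symbols are not well above background. Of ZNF540, the BT474-Var1 arrays at -2.24 and -2.58 lie above both Control arrays and both BT474-Var4 arrays below them; levels are comparable within a probe only.

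Interval 4 holds a large family of close relatives that includes ZNF91 and ZNF93, repressors of retrotransposons. Its 34 genes were in 57 probes, and 31 genes were tested. Their median was -0.23 for BT474-Var1 minus Control, with 29 of 31 genes below 0, and -0.25 for BT474-Var4 minus Control, with 30 of 31 below 0. On single arrays the medians were -0.22 and -0.23 in BT474-Var1 and -0.20 and -0.28 in BT474-Var4 cells, beside 0.01 and -0.01 on the Control arrays. The 166 tested genes of other names in the same interval had medians of 0.05 and -0.06. Under quantile normalization the median of the interval in BT474-Var1 cells was -0.12 in place of -0.23. In BT474-Var4 cells the fall was not particular to interval 4. Intervals 7, 8 and 9, with 6, 20 and 3 tested genes, had medians of -0.24, -0.23 and -0.24 there. Interval 9 was lower than interval 4 under quantile normalization (-0.22 against -0.21), and interval 7 under normexp (-0.19 against -0.18).

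Within this interval the differences ran from -0.64 to 0.11 in BT474-Var1 and from -0.65 to 0.09 in BT474-Var4 cells. The genes of this interval named next were chosen after their values were seen. ZNF93 was at 1.25 and 1.19 in Control, 0.77 and 0.81 in BT474-Var1, and 0.89 and 0.92 in BT474-Var4 cells, so that both variants lay below both Control arrays. ZNF730 was at 0.48 and 0.42 in Control cells and between -0.24 and -0.10 on the 4 variant arrays, differences of -0.57 and -0.65, while its dimmer probe gave 0.04 and 0.20. ZNF492 was at -0.53 and -0.49 in Control cells and between -1.13 and -0.92 on the variant arrays. Other genes differed mainly in BT474-Var1 cells. ZNF43 was at -1.09 and -1.15 in Control, -1.63 and -1.89 in BT474-Var1, and -1.32 and -1.42 in BT474-Var4 cells. ZNF100 was at 0.85 and 0.90 in Control, 0.33 and 0.21 in BT474-Var1, and 0.77 and 0.55 in BT474-Var4 cells. The 2 probes of ZNF91 disagreed: the one at chr19:23540681-23540740 gave -0.25 and -0.01 for the variants, and the one at chr19:23487827-23487886 gave 0.66 and 0.64. ZNF14 at 0.11 and ZNF101 at 0.01 were the 2 genes above 0 in BT474-Var1 cells, ZNF506 at 0.09 was the 1 above 0 in BT474-Var4 cells, and all of them lie at the short-arm end of the interval.

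The tested genes of interval 4 were also set apart by shared probe sequence. Only runs shared between probes on the array were counted. The split therefore cannot show signal from related transcripts, which was not tested. The 15 genes of interval 4 whose probe shared 20 or more bases with another member had medians of -0.23 and -0.25, and the 16 whose probe did not had -0.26 and -0.23, of which 14 and 15 genes were below 0. ZNF253 and ZNF85, whose probes shared 34 bases, gave -0.23 and -0.18 in BT474-Var1 and -0.28 and -0.07 in BT474-Var4 cells.

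**Figure D3:**
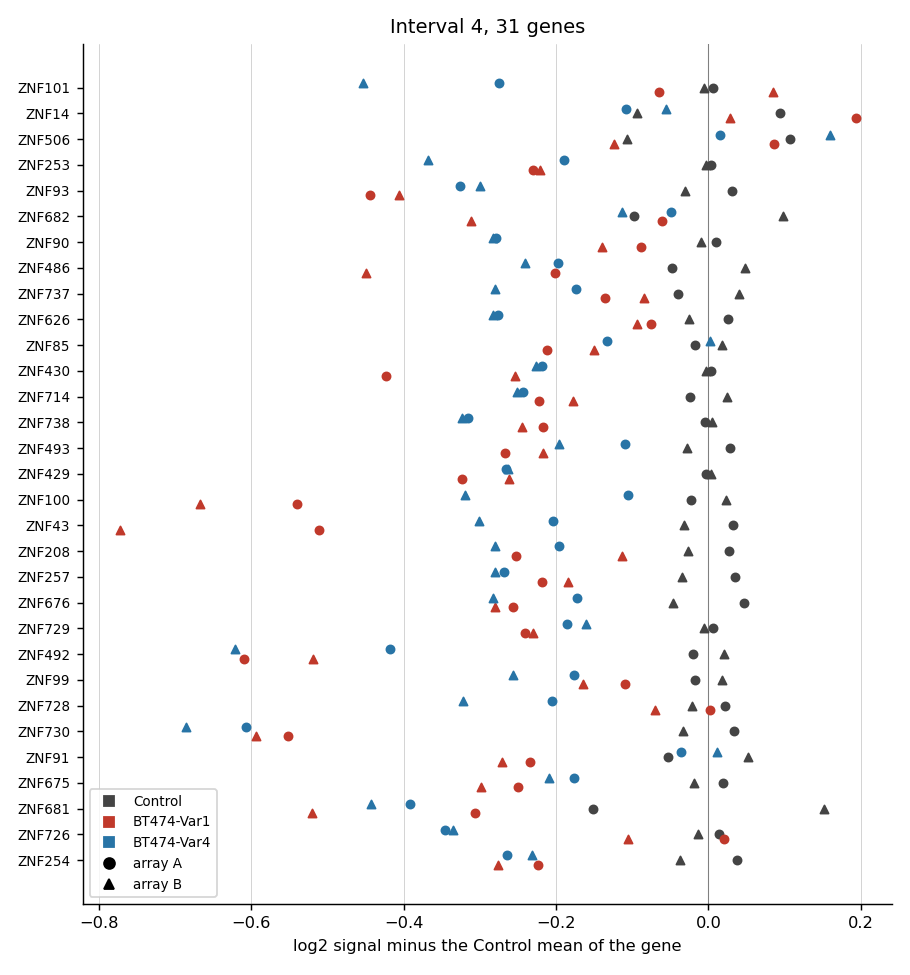
Log2 signal minus the Control mean of the gene (x axis) for the 31 tested genes of interval 4 (y axis, in order along the chromosome) on each of the 6 arrays, with color for the group and symbol for the array. 29 genes had a BT474-Var1 mean below 0 and 30 a BT474-Var4 mean below 0, with differences down to -0.64 and -0.65.

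Interval 8 holds ZNF224, a KRAB repressor, in a run of relatives with neighboring numbers. Of its 23 genes, 20 were tested. Their median was 0.11 for BT474-Var1 minus Control, with 13 of 20 above 0, -0.23 for BT474-Var4 minus Control, with 17 below 0, and -0.34 for BT474-Var4 minus BT474-Var1, with 16 below 0. In the last comparison 2 probes were called lower, read beside 4.59% of all probes. The genes did not move as a block. The 8 with the widest range of group means were ZNF428, ZNF225, ZNF224, ZNF235, ZNF284, ZNF221, ZNF234 and ZNF296.

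ZNF428, at chr19:44111636-44111695, was at 4.15 and 4.28 in Control, 5.01 and 4.87 in BT474-Var1, and 3.84 and 4.00 in BT474-Var4 cells, with no overlap between groups. It was called between the variants at -1.02, which ran from -1.10 to -0.94 with 1 array left out and so could fall under 2-fold. Its second probe at chr19:44111392-44111451 gave 0.05 and -0.30 against Control, where the first gave 0.73 and -0.30. ZNF224 was at -0.34 and -0.37 in Control, 0.15 and -0.01 in BT474-Var1, and -0.56 and -0.64 in BT474-Var4 cells. ZNF225, next to it, showed the same order, at -0.97 and -1.09, -0.54 and -0.73, and -1.29 and -1.48. ZNF284, represented by its probe at chr19:44593675-44593734, was at -0.30 and -0.31 in Control, 0.32 and 0.17 in BT474-Var1, and -0.39 and -0.36 in BT474-Var4 cells. Its printed linker probe was dim, with levels of -2.96 and -3.23 in BT474-Var1 cells and not well above background in BT474-Var4 cells, at least 1.75-fold lower there, and its call was lost without any 1 of both BT474-Var1 arrays and BT474-Var4 B. ZNF235 was at -1.06 and -1.48 in Control, -0.87 and -0.84 in BT474-Var1, and -1.46 and -1.54 in BT474-Var4 cells, where Control and BT474-Var4 overlapped. ZNF234 and ZNF221 differed mainly in BT474-Var4 cells: ZNF234 was at 2.47 and 2.49 in Control, 2.44 and 2.43 in BT474-Var1, and 1.99 and 1.96 in BT474-Var4 cells, and ZNF221 differed by 0.17 and -0.41. ZNF296, at the long-arm end, was at -0.34 and -0.10 in Control, 0.27 and 0.24 in BT474-Var1, and -0.29 and -0.17 in BT474-Var4 cells. The 25 tested genes of other names in this interval had medians of 0.29 and 0.05 against Control.

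Interval 10 had the highest median of the 13 intervals in BT474-Var1 cells, and it was selected with these array values in view. All 11 of its genes were tested. Their median was 0.44 for BT474-Var1 minus Control, with 11 of 11 above 0, 0.07 for BT474-Var4 minus Control, with 7 above 0, and -0.41 for BT474-Var4 minus BT474-Var1, with 10 below 0. Array by array, the median was 0.45 and 0.41 for BT474-Var1 and 0.076 and 0.075 for BT474-Var4 cells. All 15 tested probes were above 0 in BT474-Var1 cells, and 3 were called at 2-fold, read beside 2.77% of all probes. The 44 tested genes of other names here had medians of 0.18, -0.24 and -0.42. Quantile normalization gave 0.49 and normexp 0.32 in place of 0.44.

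The genes of interval 10 shared their sign in BT474-Var1 cells, with differences from 0.02 to 1.01, and not in BT474-Var4 cells, where they ran from -0.30 to 0.42. ZNF175 at chr19:52092551-52092610 was at 1.48 and 1.51 in Control, 2.15 and 2.13 in BT474-Var1, and 1.92 and 1.90 in BT474-Var4 cells, so that both variants lay above Control. ZNF577 was at 0.44 and 0.59 in Control, 0.98 and 0.92 in BT474-Var1, and 0.21 and 0.22 in BT474-Var4 cells, and ZNF841 was at 0.09 and 0.09, 0.54 and 0.59, and -0.14 and -0.14. These 2 genes lay above Control in 1 variant and below it in the other, but the second probe of ZNF577 gave 0.07 in BT474-Var4 cells. ZNF432 was at -0.37 and -0.35 in Control, 0.29 and 0.42 in BT474-Var1, and -0.28 and -0.27 in BT474-Var4 cells. ZNF350, a repressor that binds BRCA1, was at 3.25 and 3.29 in Control, 3.68 and 3.66 in BT474-Var1, and 3.29 and 3.23 in BT474-Var4 cells. ZNF616 differed by 0.34 and 0.07. ZNF649 and ZNF614 were the genes nearest to 0 in BT474-Var1 cells, at 0.02 each, and were named after their values were seen. The second probe of ZNF614 gave 0.28.

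ZNF615 and ZNF836 had the called probes of this interval. The printed ZNF615 probe was at -0.25 and -0.50 in Control, 0.84 and 0.77 in BT474-Var1, and -0.16 and -0.09 in BT474-Var4 cells, a difference of 1.18 for BT474-Var1, and the brighter probe at chr19:52494748-52494807 gave 0.69. ZNF836 was called with both probes. At chr19:52658130-52658189 it was at -2.46 and -2.53 in Control, -1.12 and -1.86 in BT474-Var1, and -2.27 and -2.19 in BT474-Var4 cells. At chr19:52659127-52659186 it was at -2.69 and -2.70, -1.75 and -1.63, and -2.26 and -2.55. Both are minus-strand probes, and the differences were 1.01 and 1.00 for BT474-Var1 and 0.27 and 0.29 for BT474-Var4 cells. The first no longer reached the call without any 1 array but BT474-Var1 B, nor the second without BT474-Var1 B.

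**Figure D4:**
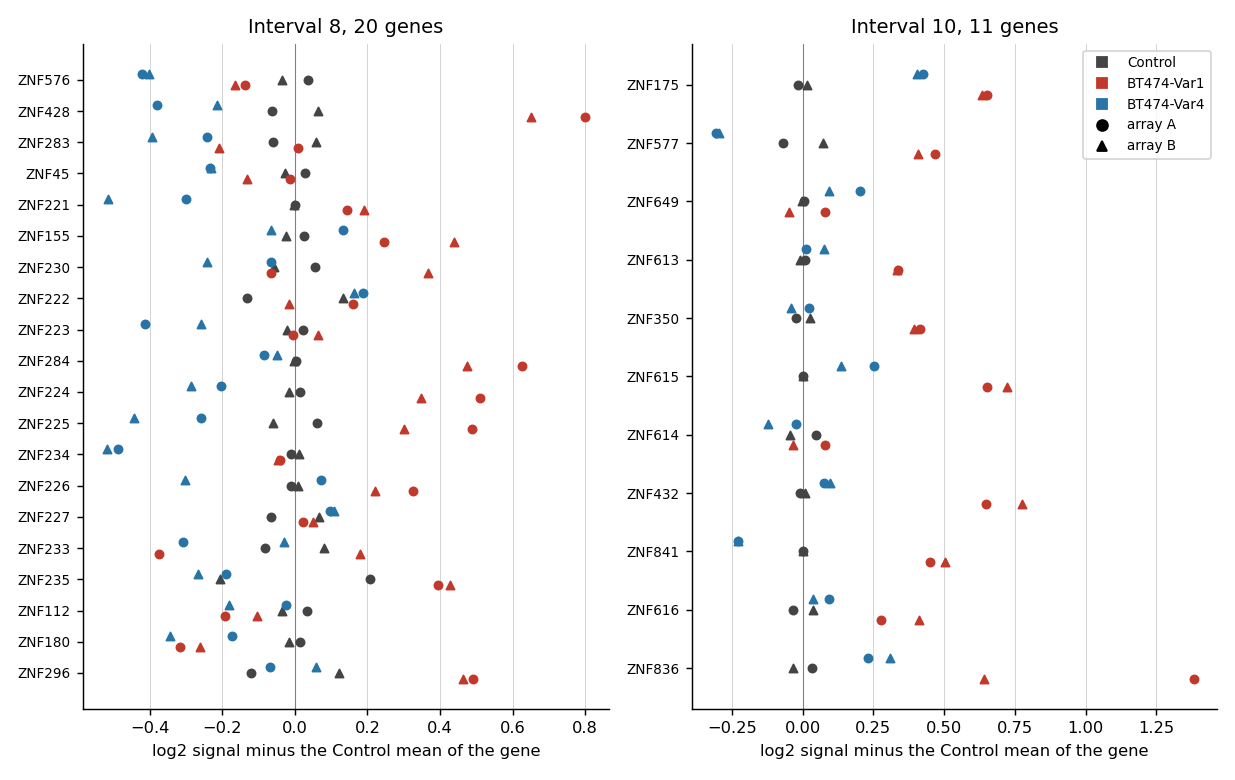
Log2 signal minus the Control mean of the gene (x axis) for the tested genes of interval 8 (left, 20 genes) and interval 10 (right, 11 genes), in order along the chromosome (y axis), on each of the 6 arrays, with color for the group and symbol for the array. In interval 10 all 11 BT474-Var1 means lie above 0, with a median of 0.44, and in interval 8 the BT474-Var1 arrays lie above 0 in some genes and below in others, with a median of 0.11.

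RefSeq promoters (GRCh38.p14, windows of 300 bases around the start) were matched by symbol to 209 of the 248 genes. They held a median of 20 CG dinucleotides and 59.7% G and C, where all 27305 promoters held 14 and 58.3%. The 10 matched promoters of interval 10 held a median of 22 CG and those of interval 4, 26 matched, 10. The motif AGGTCA, the core element bound by nuclear receptors such as NR2F1, searched on both strands, was in 26 of the 209 (12.4%), where 13.9% of all promoters held it. ZNF540, ZNF615 and ZNF836 are printed with CG in capitals, as the promoters of the genes called higher in BT474-Var1 cells. They lie on chromosome 19 at chr19:37551124-37551423 (plus strand), chr19:52008162-52008461 (minus strand) and chr19:52171572-52171871 (minus strand).
ZNF540: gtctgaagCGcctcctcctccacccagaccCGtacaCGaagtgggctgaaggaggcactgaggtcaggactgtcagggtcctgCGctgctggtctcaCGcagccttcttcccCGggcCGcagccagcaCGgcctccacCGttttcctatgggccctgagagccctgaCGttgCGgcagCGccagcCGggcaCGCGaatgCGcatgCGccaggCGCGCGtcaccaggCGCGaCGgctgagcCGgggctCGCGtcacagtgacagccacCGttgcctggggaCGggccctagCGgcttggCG
ZNF615: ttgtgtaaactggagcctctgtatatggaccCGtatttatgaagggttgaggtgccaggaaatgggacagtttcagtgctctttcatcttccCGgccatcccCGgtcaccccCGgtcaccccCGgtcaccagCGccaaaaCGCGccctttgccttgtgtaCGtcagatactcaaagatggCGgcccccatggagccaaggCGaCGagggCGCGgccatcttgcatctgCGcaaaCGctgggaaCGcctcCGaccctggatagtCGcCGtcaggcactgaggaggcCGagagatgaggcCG
ZNF836: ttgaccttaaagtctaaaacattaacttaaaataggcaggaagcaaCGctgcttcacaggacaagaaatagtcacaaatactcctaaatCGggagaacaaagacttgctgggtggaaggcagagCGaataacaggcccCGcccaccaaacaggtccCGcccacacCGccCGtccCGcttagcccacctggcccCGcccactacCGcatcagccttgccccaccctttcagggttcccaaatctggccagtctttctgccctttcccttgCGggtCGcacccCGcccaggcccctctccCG

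They held 30, 22 and 14 CG. AGGTCA was found 1 time in ZNF540, 0 times in ZNF615 and 1 time in ZNF836. A match is a description of the letters and not a site.

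In the other intervals the BT474-Var1 medians were smaller in size than those of intervals 4 and 10 (-0.23 and 0.44). Intervals 3 and 12 lay above the 0.11 of interval 8. Interval 3 (11 to 15 Mb) had a median of 0.18 over 27 genes, with 19 above 0, and -0.07 in BT474-Var4 cells. The BT474-Var4 medians were below 0 in 11 of the 13 intervals, intervals 2 and 10 being above, and normexp put interval 2 below 0 as well. In interval 12 (55 to 57 Mb), all 11 genes were below 0 in BT474-Var4 cells (median -0.19), while 9 were above 0 in BT474-Var1 cells (median 0.16). Interval 13 (57 to 60 Mb), with 44 genes, had 0.10 and -0.15, interval 11, with 28 genes, 0.09 and -0.15, and interval 6, with 25, 0.08 and -0.21.

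The highest single value in BT474-Var1 cells, 1.65 for ZNF534 of interval 11, was not called (SE 0.70, limma adjusted p = 0.14), and this probe was not well above background in Control cells, at -5.63 and -4.30.

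A few genes of these intervals, named after their values were seen, stood away from their neighbors. ZNF441 in interval 3 was at 1.71 and 1.71 in Control, 2.26 and 2.33 in BT474-Var1, and 2.42 and 2.40 in BT474-Var4 cells, and rose by 0.58 and 0.70 in the variants (limma adjusted p = 0.00479 and 0.00483). Its dimmer probe gave 0.37 and 0.90. ZNF763 nearby was at 3.59 and 3.64, 4.13 and 4.20, and 3.33 and 3.46. It rose by 0.55 in BT474-Var1 cells (adjusted p = 0.00809 by limma), and its difference in BT474-Var4 cells was -0.22 (adjusted p = 0.0885). ZNF331 of interval 11, an imprinted gene, was at -1.66 and -1.68 in Control and -2.65 and -2.32 in BT474-Var4 cells, a difference of -0.81 (adjusted p = 0.0196 by limma) from the probe at chr19:54025266-54025325. Its brightest probe, at chr19:54083408-54083467, gave 0.01 in BT474-Var4 cells (adjusted p = 0.906 by limma), so the probes of ZNF331 disagreed. ZNF784 of interval 12 was at 1.85 and 1.69, 2.22 and 2.08, and 1.26 and 1.31, with differences of 0.38 (adjusted p = 0.0322) and -0.49 (adjusted p = 0.024) from the same limma fit.

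**Figure D5:**
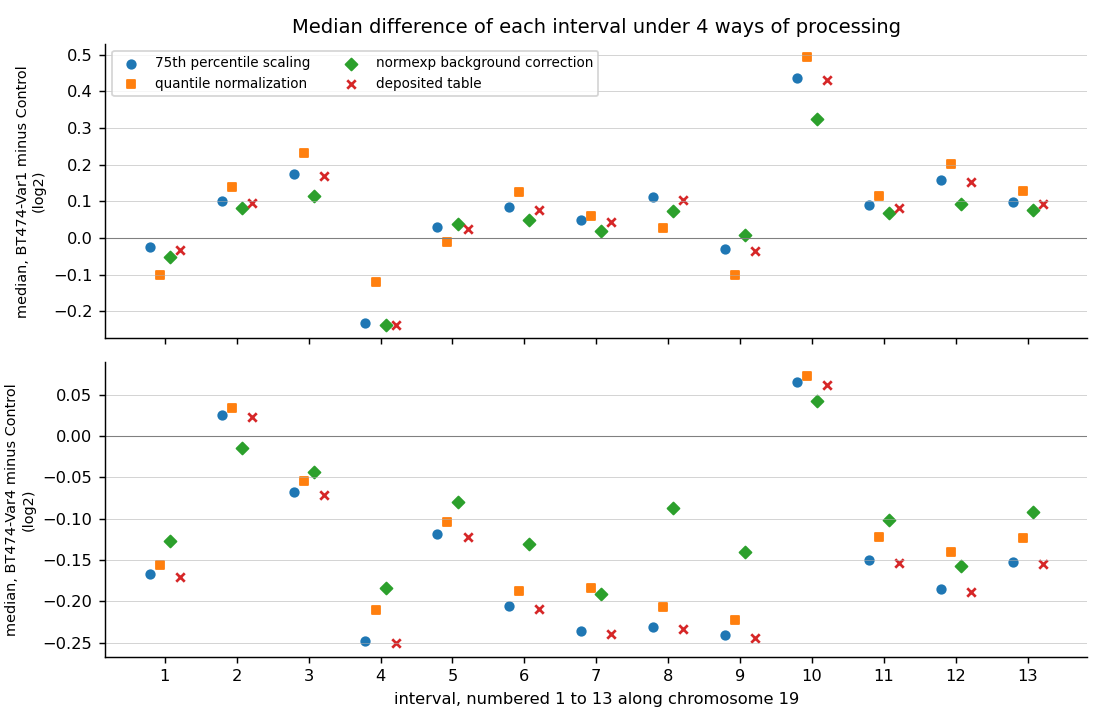
Median log2 difference of the tested zinc finger genes (y axis) in each of the 13 intervals (x axis), for BT474-Var1 (top) and BT474-Var4 (bottom) minus Control, under 75th percentile scaling, quantile normalization, normexp background correction and the deposited table. Interval 10 was the highest in the top panel under all 4, from 0.32 to 0.49, and interval 4 the lowest, at -0.23 under 75th percentile scaling and -0.12 under quantile normalization.

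The proteins through which KRAB zinc fingers act were taken as a list of 36 genes, of which 34 were tested. TRIM28 was at 4.86 and 4.86 in Control, 4.89 and 4.88 in BT474-Var1, and 4.48 and 4.48 in BT474-Var4 cells. Its difference was 0.03 (SE 0.05, limma adjusted p = 0.629) in BT474-Var1 cells, and it fell by 0.38 (a difference of -0.38, SE 0.05, adjusted p = 0.0116) in BT474-Var4 cells. SETDB1 at 1 probe was at 4.02 and 4.00, 4.06 and 4.07, and 4.15 and 4.06, and neither difference from Control passed (adjusted p = 0.447 and 0.262 by limma). A second SETDB1 probe gave 0.25 for BT474-Var1 minus Control (limma adjusted p = 0.055). Between the variants this probe gave -0.32 (limma adjusted p = 0.0265). The third gave -0.07 and -0.14 against Control. Of the 34, 0 were called at 2-fold in any of the comparisons. At the adjusted p alone, 1 was higher and 20 lower in BT474-Var1 cells, 0 and 11 in BT474-Var4 cells, and 12 were higher and 5 lower in BT474-Var4 cells relative to BT474-Var1. Over all tested probes the shares were 14.1% and 20.4%, 9.87% and 14.3%, and 20.5% and 20.8%. Their medians were -0.26, -0.16 and 0.09, beside -0.05, -0.08 and -0.03 over all genes tested. Named after their values were seen, DNMT3B, a de novo DNA methyltransferase, fell in both variants, by 0.67 (a difference of -0.67) and 0.75 (a difference of -0.75; adjusted p = 0.00412 and 0.00426 by limma), and SUV39H1, a histone H3 methyltransferase, fell by 0.39 and 0.71 (differences of -0.39 and -0.71; adjusted p = 0.0168 and 0.00696 by limma).

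Of the zinc finger genes of chromosome 19 with other names, 29 were on the array and 24 were tested. Their medians were 0.09, -0.09 and -0.31 in the 3 comparisons. ZFP82 at chr19:36883512-36883571 was at -1.59 and -1.56 in Control and -2.52 and -2.65 in BT474-Var4 cells, lower by 1.01 (a difference of -1.01, SE 0.08, limma adjusted p = 0.00506), while its other probe gave -0.61 (adjusted p = 0.668). With 1 array left out, the first probe gave -1.08 to -0.95, so it could fall under 2-fold. ZFP14 at chr19:36827587-36827646 was at -1.64 and -1.80 in BT474-Var1 and -2.63 and -3.06 in BT474-Var4 cells, a difference of -1.12 (SE 0.19, adjusted p = 0.0123 by limma). With 1 array left out it ran from -1.33 to -0.91, so it too could fall under 2-fold.

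Genes with several probes show how far a single probe can be trusted. Of the 229 tested genes, 82 had 2 or more tested probes. All tested probes of a gene had the same sign in 52 of the 82 for BT474-Var1 minus Control, in 61 for BT474-Var4 minus Control and in 57 between the variants, and the median range between the probes of a gene was 0.22, 0.20 and 0.23. ZNF91 was the gene whose probes passed the adjusted p in both directions in BT474-Var1 against Control cells.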

How the data were processed

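The authors labeled total RNA with Cy3, hybridized it to Agilent SurePrint G3 arrays and scanned them, and spots were read by Feature Extraction, release 11.5.1.1 per the file headers. The deposited scanner files hold processed intensity values per spot on a linear scale, background-subtracted and not normalized between arrays. A deposited table holds the authors' log2 values after a shift to the 75th percentile of each array, and each of its columns matched its own array within a median absolute difference of 0.00716. Probe positions in the file headers are on hg19, and their design number differs from that of the methods.

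Here, spots marked as outliers were left out, log2 intensities of a probe's spots were averaged, and the 75th percentile over all non-control probes was subtracted. The 31807 probes that the scanner software marked as well above background in both arrays of 1 or more of the 3 groups were tested with limma 3.58.1 in R 4.3.3, 1 mean per group, with Benjamini-Hochberg adjustment over all of them. A call needed 2-fold and an adjusted p under 0.05. Medians used 1 probe per gene. From 47.6% (BT474-Var4 B) to 57.5% (Control B) of probes per array were well above background, beside 53.1% on BT474-Var4 A and 54.4% on Control A. The lowest level well above background was -3.60 on BT474-Var4 B and -4.51 on Control B. Having 2 arrays per group limits the precision. The residual degrees of freedom were 3. The letters A and B do not pair arrays: deviations from the group means of same-letter arrays correlated at r = 0.05, -0.01 and -0.02.

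Members, intervals and lists were chosen with earlier results of these data known. Named genes were the 5 largest rises and falls per comparison among called members whose arrays did not overlap and that were well above background in the brighter group, the 8 with the widest range of group means in intervals 8 and 10, members called in opposite directions or with discordant probes, TRIM28 and SETDB1, and called zinc finger genes of other names. Genes outside this rule are named as such. The pipeline was tested on simulated data. Alternatives were the deposited table, quantile normalization, a replicate block, normexp (offset 50), testing all probes or those above background on all 6 arrays, eBayes with trend and robust estimation, only the groups compared, each array left out, distinct gene names, the analysis of variance of the methods, the mean over a gene's probes, other probes of a gene, and, added after seeing the data, values raised to the background bound.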

Additional observations from a re-analysis of the deposited data

How the results depend on the processing

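The number of member probes called at 2-fold was 6 for BT474-Var1 against Control, 4 for BT474-Var4 against Control and 7 for BT474-Var4 against BT474-Var1. Normexp background correction left 0 in each. With probes well above background on all 6 arrays alone, which tests fewer probes, the counts were 3, 0 and 2. Without a filter on dim probes they were 4, 0 and 3, after quantile normalization 5, 2 and 4, and with the adjusted p of the methods' analysis of variance 4, 2 and 3. Leaving out 1 array gave 4 to 5, 1 to 4 and 3 to 5 calls. With the letter as a replicate block, although the letters do not pair the arrays, the counts were 4, 2 and 6. The shares of all tested probes called under these alternatives were not set beside the counts. The changes in number therefore cannot be read as particular to the members.

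The median over all member genes stayed on its side of 0 under each of these settings. For BT474-Var1 against Control it was 0.050 under normexp, 0.098 under quantile normalization and 0.085 without the filter, for BT474-Var4 against Control -0.10 and -0.13 under normexp and quantile normalization, and between the variants -0.13 under normexp. Leaving out 1 array gave 0.058 to 0.077, -0.18 to -0.14 and -0.21 to -0.18. In interval 8, BT474-Var1 against Control gave 0.028 under quantile normalization and 0.17 without the filter, BT474-Var4 against Control -0.087 under normexp and -0.17 without the filter, and the variants -0.17 under normexp and -0.24 under quantile normalization. The ranges without 1 array were 0.082 to 0.19, -0.25 to -0.20 and -0.40 to -0.24. In interval 10, BT474-Var1 against Control gave 0.32 under normexp, 0.49 under quantile normalization and 0.48 with the mean over a gene's probes. BT474-Var4 against Control gave 0.043, 0.073 and, in the deposited table, 0.062, and the variants -0.34 and -0.51 under normexp and quantile normalization. The ranges without 1 array were 0.38 to 0.48, 0.052 to 0.094 and -0.44 to -0.37.

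Among values of genes under the naming rule that passed the adjusted p, direction turned in 3, each with another probe of the gene. They were ZNF577 in BT474-Var4 against Control (0.066), ZNF90 in BT474-Var1 against Control (0.23) and SETDB1 between the variants (0.037). Genes named after their values were seen were not in this count. Among those, probes of ZNF331 and of ZNF91 disagreed, as given above. Values that did not pass could change sign too, as ZNF296 in BT474-Var4 against Control, from -0.13 to 0.12 over the alternatives. The cause of these differences was not tested. Signal over background limits the large fold changes: 7 of the 13 called probes were not well above background on any array of at least 1 group.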
